A study of Arabidopsis thaliana with 40 samples.

Results

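Total mRNA of submerged Arabidopsis thaliana seedlings was compared between the line K48M and the wild type Col-0, in 4 of the 40 samples of the series. The K48M group holds 2 libraries and the Col-0 group holds 2, chosen by the condition in the column headers of the deposited count tables. K48M is Col-0 that overexpresses SnRK1.1, the kinase subunit also called KIN10, with the K48M amino acid change. All 4 libraries came from whole seedlings aged 9 days that spent 3 h under water and in darkness, so the K48M and the Col-0 group share the treatment. The sources used here do not name the promoter of the transgene or the number of independent K48M lines. The 2 repeats per group are independent biological ones per the series text. For comparison, the same genotypes were read in darkness without submergence (4 total mRNA libraries) and in RNA of heavy polysomes, the mRNA fraction that carries many ribosomes, under submergence (4 libraries). Together with polysome libraries of the dark seedlings these made up the 16 libraries of 1 fit.

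SnRK1 is the plant relative of yeast SNF1 and of mammalian AMPK, a kinase that is active when cellular energy is low. In plants it turns on genes of starch, amino acid and sugar breakdown and turns off genes of growth, and submergence, which cuts off both oxygen and photosynthesis, is a condition of low energy. A kinase binds ATP through a conserved lysine, and replacing that lysine with methionine is a common way to make an inactive kinase that can compete with the native one. Kinase activity was not measured here.

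The codon that the K48M change names lies in a coding exon of KIN10 (AT3G01090, TAIR10.1 chromosome 3, 31145 to 34670, minus strand). The 2 lines below show the reference coding strand around it in KIN10 (chr3:33810-33860) and around the corresponding codon 49 of its paralog KIN11 (AT3G29160, chr3:11131340-11131390, minus strand), with the lysine codon in capitals. They are shown because the codon defines the line and KIN11 is the closest relative of KIN10. The deposited counts are per transcript model, so reads of the transgene and of the native gene cannot be told apart.
KIN10: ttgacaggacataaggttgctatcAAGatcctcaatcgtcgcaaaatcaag
KIN11: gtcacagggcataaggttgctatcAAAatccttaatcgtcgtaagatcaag
Of these 51 bases, 44 were the same in KIN10 and KIN11. KIN10 has a second annotated reading frame in which the same lysine is codon 71. These letters are of the reference, not of the transgene.

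Each group has 1 library of the set named ST_FR and 1 of the set named LTF_GG in the column headers, and pairs of values are given in that order. The LTF_GG library of submerged K48M carries a conflict of labels: its sample title calls it a dark control, whereas the column header and the authors' index give it as submerged, and a second K48M library has the opposite conflict. The 47 hypoxia genes of a list of the low-oxygen response summed to 20657 CPM in the ST_FR and 18955 CPM in the LTF_GG library of K48M that the headers call submerged, against 19309 and 16839 CPM in submerged Col-0. The sums were 1494 and 1248 CPM in the K48M libraries that the headers call dark, against 1417 and 1092 CPM in dark Col-0. The header conditions were used, and values with both libraries left out or with the titles' conditions are given where they differ.

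KIN10 was the gene that set the lines apart. It stood at 1403 CPM in the ST_FR library and 1546 CPM in the LTF_GG library of submerged K48M, against 25.8 and 32.3 CPM in the corresponding Col-0 libraries (CPM, read counts scaled to library size with TMM factors, n = 2 per group). The means were 1475 ± 101 CPM in K48M and 29.1 ± 4.55 CPM in Col-0 (SD), and the groups lay far apart. KIN10 rose 50.9-fold, a log2 difference of 5.67 ± 0.33 (SE), with an adjusted p of 2.43e-07 in edgeR's quasi-likelihood test. KIN10 reads made up 0.154% and 0.123% of the gene reads in K48M, against 0.00228% and 0.00431% in Col-0.

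The counts of KIN10 were summed over its annotated transcript models. Model AT3G01090.1 took 76.1% and 72.5% of the KIN10 reads in K48M, against 71.1% and 77.0% in Col-0. Reads that fitted a single model numbered 5 and 4 in K48M, against 3 and 5 in Col-0, so these shares reflect how ambiguous reads were allotted and do not show which model was expressed. KIN11 showed no comparable gap, at 16.7 and 31.9 CPM in K48M against 25.8 and 29.9 CPM in Col-0 (log2 difference -0.26, 95% interval -0.84 to 0.33).

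In the libraries that this comparison did not use, KIN10 was higher in K48M as well. In the dark total mRNA it stood at 1171 and 1334 CPM in K48M and at 27.8 and 36.9 CPM in Col-0. In submerged polysome RNA it stood at 385 and 412 CPM in K48M and at 29.4 and 27.9 CPM in Col-0. The log2 differences were 5.28 ± 0.32 in the dark (edgeR adjusted p = 5.19e-07) and 3.79 ± 0.30 in submerged polysome RNA (edgeR adjusted p = 2.54e-05). The genotype difference under submergence minus that in the dark was 0.39 on the log2 scale, with a 95% interval of -0.42 to 1.2 (edgeR adjusted p = 1). The gap between total and polysome RNA was not tested.

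**Figure D1:**
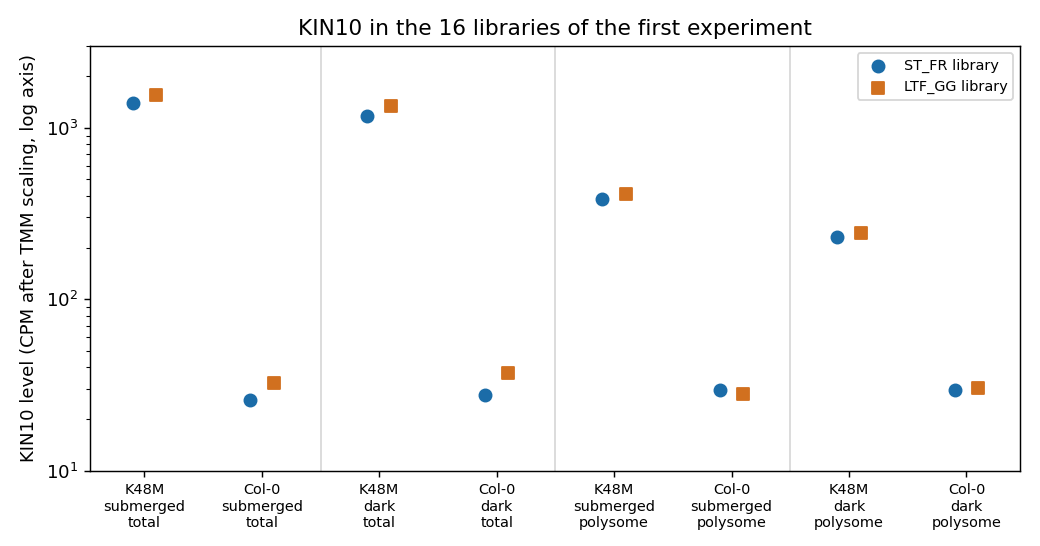
KIN10 level in CPM after TMM scaling (log axis) in each of the 16 libraries, with K48M left of Col-0 in each pair of groups, circles for ST_FR and squares for LTF_GG libraries. The K48M libraries sit between 232 and 1546 CPM, above all Col-0 libraries, which reach at most 36.9 CPM.

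Apart from KIN10, the K48M libraries of the 2 sets differed in a gene that the transgene does not name. ARO1 (AT4G34940, TAIR10.1 chr4:16639526-16641950, plus strand), an armadillo-repeat protein gene known for pollen tube growth, had 136 reads in the submerged total, 103 in the dark total, 105 in the submerged polysome and 58 in the dark polysome library of the K48M LTF_GG set. It had 0 reads in the 12 others, the 4 ST_FR libraries of K48M among them. No other gene had at least 10 reads in all 4 libraries of 1 genotype in 1 set and none in the 12 others, in any of the 4 combinations of genotype and set. The neighbour AT4G34950 (chr4:16642142-16644928, minus strand), which codes for a Major facilitator superfamily protein and lies 191 bases away end to end, ran from 83.1 to 98.3 CPM in the same 4 libraries and from 15.7 to 50.6 CPM in the 12 others. Both genes were chosen after their values were seen. In the submerged total mRNA ARO1 had the second smallest p of all genes (edgeR adjusted p = 0.0633), and no fold is given because Col-0 and the ST_FR library of K48M were at 0.

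In addition, the libraries differed by transcript length and by organelle RNA, and the differences ran crosswise. Genes were split into 5 equal classes by their longest transcript model. In the class with the longest models (2271 to 16347 bases), the median deviation from the mean over the 8 total mRNA libraries was -0.03 in the ST_FR and -0.18 in the LTF_GG library of submerged K48M, against -0.09 and 0.40 in submerged Col-0 (log2). In the shortest class (135 to 954 bases), these values were 0.03 and 0.17 in K48M, against 0.11 and -0.40 in Col-0. The LTF_GG library of submerged Col-0 was thus richest in long and poorest in short mRNAs among these 4. Organelle genes held 0.27% and 7.31% of all gene reads in K48M, against 4.63% and 0.28% in Col-0. Ribosomal RNA genes held 1.43% and 14.62% in K48M, against 12.10% and 0.91% in Col-0.

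These opposite profiles show in the genes themselves. The chloroplast gene psbA, which codes for the D1 protein of photosystem II, stood at 41.1 and 1707 CPM in K48M, against 798 and 22.6 CPM in Col-0. It was thus low in K48M in the ST_FR pair and high in K48M in the LTF_GG pair. The chloroplast gene rbcL, which codes for the large subunit of Rubisco, had the same pattern, with 26.3 and 790 CPM in K48M against 373 and 13.2 CPM in Col-0. Of 63 chloroplast-encoded genes tested, 55 were lower in K48M in the ST_FR pair and higher in the LTF_GG pair, with median log2 differences of -1.85 and 2.22, and 0 reached an unadjusted p under 0.05 in edgeR.

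Across all 19024 genes tested, the K48M over Col-0 difference of the ST_FR pair and that of the LTF_GG pair had the same sign for 7954, or 41.8%. Pearson's r between them was -0.24 and Spearman's rho -0.22, a description across genes that share library, depth and length composition. The same share was 58.9% in the dark (r = 0.23) and 53.9% in submerged polysome RNA (r = 0.08). The LTF_GG pair had the wider spread, with 4121 genes past a log2 difference of 1 in either direction, against 1394 in the ST_FR pair. Past that size in both pairs, 129 genes agreed in sign and 379 did not.

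**Figure D2:**
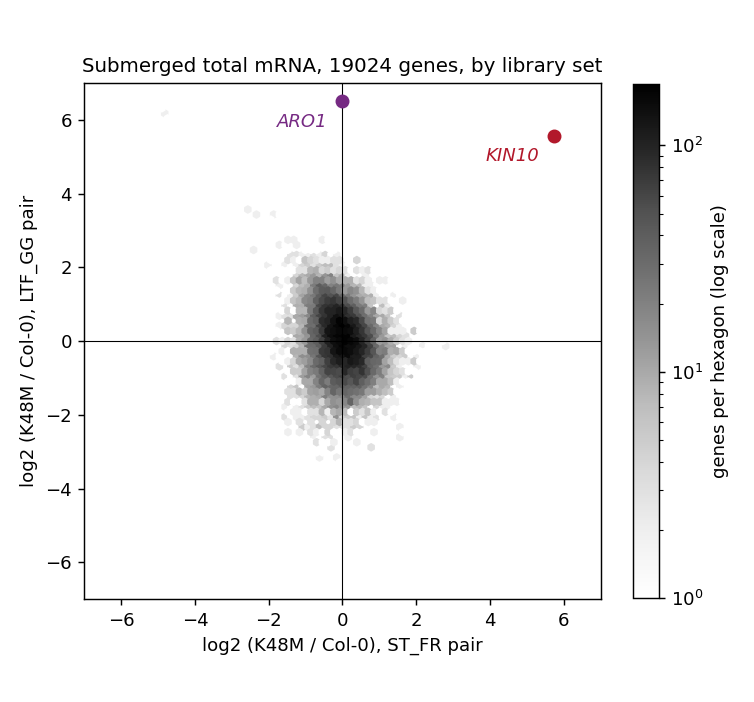
Each of the 19024 genes by its log2 K48M over Col-0 difference in the ST_FR pair (x axis) and in the LTF_GG pair (y axis) of submerged total mRNA, with darker hexagons for more genes on a log scale. KIN10 sits alone at 5.74 and 5.57 and the cloud leans from upper left to lower right (r = -0.24).

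**Figure D3:**
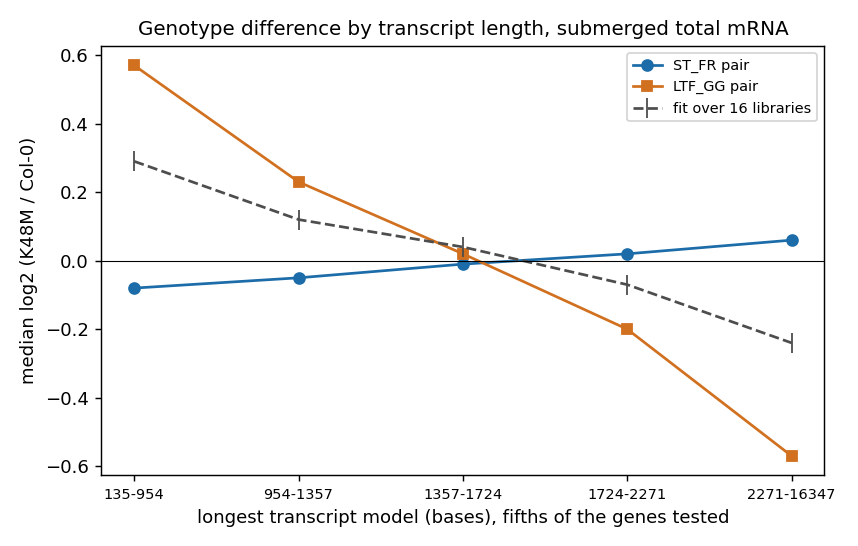
Median log2 K48M over Col-0 difference in submerged total mRNA (y axis) for 5 classes of genes by transcript length in bases (x axis), in the ST_FR pair, the LTF_GG pair and the fit. In the LTF_GG pair the median runs from 0.57 in the shortest to -0.57 in the longest class, whereas in the ST_FR pair it runs from -0.08 to 0.06.

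KIN10 was the only call among the 19024 genes, which is 0.00526% of them (1 higher and 0 lower at an adjusted p under 0.05, edgeR). DESeq2 made 2 calls, KIN10 and AT1G29357, a gene annotated as a long noncoding RNA that was lower in K48M. At an unadjusted p under 0.05 edgeR listed 1379 genes (7.25%), of which 489 were higher (2.57%) and 890 lower (4.68%) in K48M. Their lengths differed: the median longest model measured 1092 bases for the higher and 2249 bases for the lower genes, against 1532 bases over all genes tested. Of the lower genes 436 lay in the longest and 31 in the shortest class, and of the higher genes 25 lay in the longest and 207 in the shortest. Spearman's rho of length with the fitted difference was -0.41 across genes, with -0.49 in the LTF_GG pair and 0.09 in the ST_FR pair. The part of length in these differences was not tested.

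Leaving out the LTF_GG library of submerged K48M brought the genes at an unadjusted p under 0.05 to 880, with 452 higher and 428 lower, and leaving out that of Col-0 to 850, with 403 higher and 447 lower. Leaving out the ST_FR library of K48M gave 2617 and that of Col-0 3200. In these last 2 fits ARO1 joined KIN10 as a call. With both libraries of conflicting labels left out, 730 genes were higher and 729 lower, and with the conditions of the titles 1271 were higher and 1090 lower, so the excess of lower genes was not seen in either. The fit by titles counts as submerged K48M the library whose hypoxia genes summed to 1248 CPM, beside 1417 and 1092 CPM in dark Col-0. It thus cannot decide whether the excess holds in submerged seedlings. The 8 total mRNA libraries alone gave 829 genes, with 290 higher and 539 lower.

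Among the genes with the smallest unadjusted p that lay on the same side in both library sets, 2 enzymes of the glyoxylate cycle were on the higher side. ICL codes for isocitrate lyase and MLS for malate synthase, the pair that lets seedlings make sugar from stored oil. ICL had 25.9 and 14.3 CPM in K48M, against 8.76 and 2.52 CPM in Col-0, and the groups did not overlap. Its log2 difference was 1.97 ± 0.39 with an edgeR adjusted p of 0.442, so it was not called. MLS had 10.3 and 7.62 CPM in K48M, against 4.49 and 3.24 CPM in Col-0, again without overlap (log2 difference 1.21 ± 0.33, edgeR adjusted p = 0.621). In the dark ICL had 4.07 and 2.92 CPM in K48M, against 0.829 and 0.346 CPM in Col-0, and in submerged polysome RNA it had 13 and 5.93 CPM in K48M, against 6.59 and 1.4 CPM in Col-0. MLS had 6.99 and 4.48 CPM in K48M and 4.81 and 2.53 CPM in Col-0 in the dark, and 9.88 and 8.69 CPM in K48M and 5.52 and 5.09 CPM in Col-0 on submerged polysomes. Outside the comparison that picked them, both genes were higher in K48M in each pair of dark total and submerged polysome libraries. The groups overlapped for MLS in the dark and for ICL on submerged polysomes. Of all 19024 genes tested, 5739 were higher in both pairs in the dark and 5245 in submerged polysome RNA. Neither gene was called by edgeR in any of the 3 comparisons. The same submerged libraries picked the genes of the higher side by p, and the share of all genes without overlap was not counted. Their separation under submergence is thus no further support.

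The other 8 genes of the higher side had log2 differences from 1.04 to 1.91. AT4G33550, a member of the lipid-transfer protein superfamily, had 13.9 and 6.43 CPM in K48M, against 3.63 and 1.92 CPM in Col-0. AT5G01215, annotated as a long noncoding RNA, had 35.3 and 24 CPM in K48M, against 8.55 and 7.80 CPM in Col-0. BNQ2, a small helix-loop-helix protein known from flower development, had 9.90 and 3.33 CPM in K48M, against 3.20 and 0.84 CPM in Col-0. Of these 3, AT4G33550 and AT5G01215 separated the groups, whereas the BNQ2 levels came close, with the lower K48M library just above the higher Col-0 one. The remaining 5 were MAKR6 (1.35), AT5G44572 (1.1), AT2G19970 (1.47), the defensin-like PDF1.4 (1.42) and AT2G17972 (1.04). Their edgeR adjusted p-values lay between 0.570 and 0.622.

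On the lower side the smallest p belonged to PTR4, annotated as a Major facilitator superfamily protein. It had 2.69 and 3.57 CPM in K48M, against 8.33 and 16.1 CPM in Col-0 (log2 difference -1.92 ± 0.33, edgeR adjusted p = 0.161). AT1G29357 had 5.37 and 9.52 CPM in K48M, against 22 and 37.3 CPM in Col-0 (log2 difference -2 ± 0.37). Its adjusted p was 0.312 in edgeR and 0.00929 in DESeq2, and its difference was alike in the ST_FR pair (-1.96) and the LTF_GG pair (-1.93). PFK6, a phosphofructokinase of the hypoxia list, had 34.1 and 20.0 CPM in K48M, against 57.0 and 78.4 CPM in Col-0 (log2 difference -1.37 ± 0.30, edgeR adjusted p = 0.570). In each of these 3 genes both K48M libraries lay below both Col-0 libraries. The same libraries picked these genes, so the separation is no further support.

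The other 7 genes of the lower side had log2 differences from -2.12 to -1.31. AT4G16870, a pseudogene in RefSeq, had 2.40 and 6.19 CPM in K48M, against 5.98 and 36.1 CPM in Col-0, so its groups overlapped. DRL1, an enzyme known from pollen wall formation, had 1.27 and 1.67 CPM in K48M, against 4.06 and 7.44 CPM in Col-0. It is not AT1G13870, which shares the symbol DRL1 and had a log2 difference of 0.40. The secretory carrier protein SCAMP4 had 4.1 and 3.10 CPM in K48M, against 9.83 and 14.8 CPM in Col-0. The bromodomain gene AT1G20670 had a difference of -1.42, the terpenoid cyclase superfamily gene AT3G29410 also -1.42, AT3G14172 -1.51 and AT1G73980, also called TTM1, -1.31.

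These 20 genes were also read in dark total mRNA and submerged polysome RNA. Those libraries gave none of the differences that chose the genes, but shared with them the estimate of the spread and the block of the fit. The dark LTF_GG libraries also shared the length profile of the submerged ones. In the longest class the median deviation was -0.03 and -0.25 in dark K48M, against 0.02 and 0.22 in dark Col-0. The part of this profile in the agreement of signs was not tested. In dark total mRNA all 10 higher genes were higher and all 10 lower genes lower in K48M, of which 6 and 8 had an unadjusted p under 0.05 in edgeR. That threshold was passed in the dark, with the sign of the submerged difference, by 598 of the 1378 genes other than KIN10 chosen at an unadjusted p under 0.05 and by 2241 of all 19024 genes. The sign alone was the same for 95.4% of these 1378 genes and for 75.0% of all genes tested. Within the middle class of transcript lengths the shares were 92.6% of 242 such genes and 72.0% of 3806 genes. In submerged polysome RNA 9 of the 10 higher genes were higher and 8 of the 10 lower genes lower, against 57.8% of the 1378 genes and 51.5% of all genes. PTR4 had 3.09 and 3.31 CPM in K48M and 8.12 and 11.2 CPM in Col-0 in the dark, and 6.93 and 9.33 CPM in K48M and 6.77 and 12.6 CPM in Col-0 on submerged polysomes. Its lower level was thus seen in total mRNA of both conditions and not in both polysome pairs. AT1G29357 had 8.46 and 5.07 CPM in K48M and 17.9 and 32.8 CPM in Col-0 in the dark, and 14.7 and 26.5 CPM in K48M and 14.4 and 34.6 CPM in Col-0 on submerged polysomes. edgeR called 1 gene, KIN10, in each of the dark and the polysome comparison, which is again 0.00526% of those tested. DESeq2 called 42 genes in the dark, 26 higher and 16 lower in K48M, and 1 in submerged polysome RNA.

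**Figure D4:**
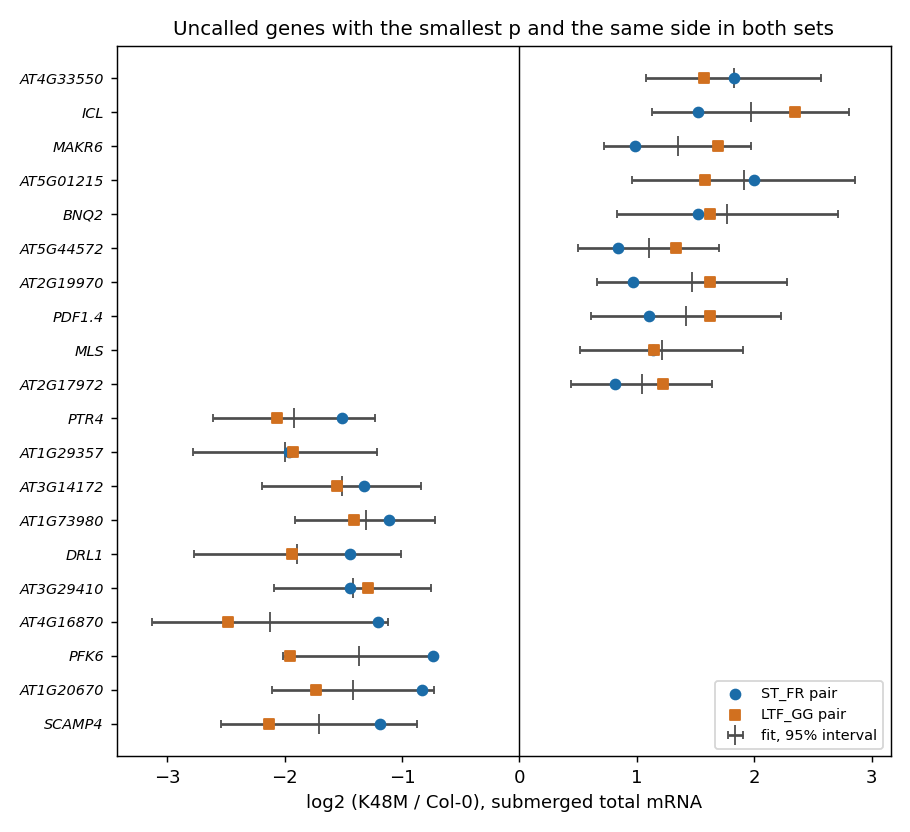
Log2 K48M over Col-0 difference in submerged total mRNA (x axis) for the 10 higher and the 10 lower genes (rows), with circles for the ST_FR pair, squares for the LTF_GG pair and a bar with whiskers for the fitted value and its 95% interval. All points of a gene lie on 1 side of 0, from 1.04 for AT2G17972 to 1.97 for ICL and from -2.12 for AT4G16870 to -1.31 for AT1G73980 in the fit. edgeR called none of them, and DESeq2 called AT1G29357.

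No other part of the SnRK1 complex was called. Of 9 listed subunits and activating kinases 8 were tested, 1 was called (KIN10), and KIN12 had 0 CPM in all 4 libraries. The beta subunit AKINBETA1 had 145 and 172 CPM in K48M, against 117 and 189 CPM in Col-0 (log2 difference 0.08, 95% interval -0.58 to 0.75). The regulatory subunit SNF4, also called beta-gamma, had 12.4 and 16.2 CPM in K48M, against 15.6 and 22.7 CPM in Col-0 (-0.42, interval -0.99 to 0.16). GRIK1, a kinase that phosphorylates and activates SnRK1, had 9.61 and 9.05 CPM in K48M, against 16.2 and 22.1 CPM in Col-0. The GRIK1 groups did not overlap, but the share of all genes without overlap was not counted. The GRIK1 difference of -0.98 ± 0.32 was not called (edgeR adjusted p = 0.642). GRIK2, its close relative, had 9.76 and 10 CPM in K48M, against 13.7 and 14 CPM in Col-0 (-0.48, interval -1.29 to 0.33).

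Genes that carbon starvation induces, many of them known SnRK1 targets, showed no call among 24 tested, with 0 higher and 1 lower at an unadjusted p under 0.05 in edgeR. Their median log2 difference was -0.06, beside 0.03 over all genes tested, with 11 positive and 13 negative. ASN1, also called DIN6, codes for an asparagine synthetase and is the classical marker of SnRK1 activity. It had 251 and 598 CPM in K48M, against 254 and 358 CPM in Col-0 (log2 difference 0.21, 95% interval -1.16 to 1.58). DIN10, a raffinose synthase family gene, had 1012 and 2022 CPM in K48M, against 935 and 2443 CPM in Col-0 (-0.07, interval -0.82 to 0.68). SEN1, also called DIN1, had 925 and 1115 CPM in K48M, against 950 and 960 CPM in Col-0 (0.08, interval -0.82 to 0.97). In each of these 3 genes the K48M and Col-0 libraries overlapped.

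The member of that list with the smallest p was TPS10, a trehalose-phosphate synthase-like protein, with 100 and 117 CPM in K48M against 118 and 220 CPM in Col-0 (log2 difference -0.58 ± 0.24, edgeR adjusted p = 0.669). The transcription factor BZIP1 had 49.6 and 50.7 CPM in K48M, against 41.0 and 32.8 CPM in Col-0 (0.45, interval -0.05 to 0.95). DIN4 and MCCA, both of branched-chain amino acid breakdown, had differences of -0.52 (interval -1.15 to 0.10) and -0.60 (interval -1.47 to 0.27). The intervals of ASN1, DIN10 and SEN1 each include a 1.5-fold difference either way, so differences of that size were not detectable with these libraries. In the dark, read from other libraries, the list had a median of -0.37, with 7 positive and 17 negative of 24 and 0 called. At an unadjusted p under 0.05 in edgeR 0 were higher and 5 lower, and 14 were negative in both library pairs. Over all 19024 genes in the dark 52.1% were positive, 1174 were lower at that threshold and 5470 were negative in both pairs. In submerged polysome RNA the list had a median of 0.18, with 20 positive and 4 negative, beside 50.7% positive over all genes tested. There 0 were called and 0 had an unadjusted p under 0.05.

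The genes that mark the response to low oxygen were at submerged levels in K48M. For the LTF_GG library of K48M, whose labels conflict, the same genes were summed above, so its level is no separate result. Of 47 hypoxia genes, all tested, 0 were called, the median log2 difference was 0.00, and 24 were positive and 23 negative. ADH1, the alcohol dehydrogenase of fermentation, had 1328 and 1322 CPM in K48M, against 1394 and 1588 CPM in Col-0 (log2 difference -0.18, 95% interval -0.90 to 0.54). In the dark it had 36.6 and 29.6 CPM in K48M and 43.8 and 27.6 CPM in Col-0. PDC1, the pyruvate decarboxylase upstream of ADH1, had 639 and 989 CPM in K48M, against 1020 and 696 CPM in Col-0 (-0.02, interval -1.02 to 0.99). The transcription factor HRE1 had 89.5 and 209 CPM in K48M, against 83.7 and 175 CPM in Col-0 (0.17, interval -0.31 to 0.66). HRE2, its relative, had 85.3 and 71.7 CPM in K48M, against 85.2 and 36.4 CPM in Col-0 (0.56, interval -0.18 to 1.29).

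At an unadjusted p under 0.05, 4 of the 47 hypoxia genes were lower and 0 higher in K48M. Over all genes tested 4.68% were lower and 2.57% higher at that threshold. Beside PFK6 the lower hypoxia genes were SUS4, AT2G15880 and AT1G55810. SUS4, a sucrose synthase that feeds glycolysis under low oxygen, had 79.3 and 161 CPM in K48M, against 162 and 257 CPM in Col-0 (log2 difference -0.82 ± 0.31, edgeR adjusted p = 0.667). AT2G15880 had 81.3 and 116 CPM in K48M, against 131 and 824 CPM in Col-0, and AT1G55810, a uridine kinase-like gene, had 163 and 164 CPM in K48M, against 232 and 368 CPM in Col-0. In these 3 genes the LTF_GG library of Col-0 was the highest of the 4. SUS1, the other sucrose synthase of the list, had 437 and 858 CPM in K48M, against 566 and 794 CPM in Col-0 (-0.10, interval -0.81 to 0.61). Of 11 further fermentation and sucrose genes 9 were tested and 0 called, with a median of -0.07 and a range from -0.38 to 0.21.

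TOR, the growth-promoting kinase that acts opposite to SnRK1, was lower in K48M without a call. It had 10.3 and 17.6 CPM in K48M, against 24.1 and 41.3 CPM in Col-0 (log2 difference -1.22 ± 0.29, edgeR adjusted p = 0.578), with -1.2 in the ST_FR pair and -1.21 in the LTF_GG pair. In the dark it had 10.1 and 13.1 CPM in K48M and 17.6 and 34.8 CPM in Col-0, and on submerged polysomes 21.0 and 43.7 CPM in K48M and 17.1 and 43.0 CPM in Col-0. Among the 12 genes of the TOR pathway and of trehalose-6-phosphate, the sugar signal that inhibits SnRK1, 4 were lower and 0 higher at an unadjusted p under 0.05 and 0 were called, with a median of -0.20. The other 3 were TPS1, the trehalose-6-phosphate synthase (-0.85 ± 0.34), and the phosphatases TPPA (-0.74 ± 0.31) and TPPB (-0.86 ± 0.37). TOR has a longest model of 8007 bases, within the class whose median difference was -0.24 in the fit, 0.06 in the ST_FR and -0.57 in the LTF_GG pair. In that class 436 of 3805 genes were lower at an unadjusted p under 0.05 in edgeR, beside 4.68% of all genes tested.

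Photosynthesis genes of the nucleus differed in opposite directions in the library sets. Of 29 tested 28 had a positive log2 difference, 0 were called and 0 had an unadjusted p under 0.05 in edgeR, with a median of 0.51 beside 0.03 over all genes. In the ST_FR pair the median was -0.41 and in the LTF_GG pair 1.22, and 28 of the 29 had opposite signs in the pairs. Their summed level was 88492 and 151482 CPM in K48M, against 117897 and 58404 CPM in Col-0, so each line held both a high and a low library. LHCA1, a light-harvesting protein of photosystem I, had 4062 and 6802 CPM in K48M, against 3855 and 2920 CPM in Col-0 (0.67, interval -0.24 to 1.59). LHCB6 of photosystem II had 2345 and 3839 CPM in K48M, against 3404 and 1108 CPM in Col-0 (0.72, interval -0.41 to 1.84), and its difference was -0.27 with both libraries of conflicting labels left out. The organelle and ribosomal RNA shares given above were low and high in the same libraries as these sums among the 4, and their part was not tested. In dark total mRNA 28 of the 29 photosynthesis genes were positive (median 0.70), and 21 were positive in both pairs, beside 5739 of all 19024 genes. In submerged polysome RNA 28 of the 29 were negative (median -0.38), and 27 were negative in both pairs, beside 5017 of all genes. In both comparisons 0 of the list were called.

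The summed level of 12 root markers was 166 and 340 CPM in K48M, against 264 and 203 CPM in Col-0, with medians of -0.66 in the ST_FR and 0.62 in the LTF_GG pair and 0 called. At an unadjusted p under 0.05, 1 was higher and 0 lower in edgeR, namely the iron transporter IRT1, which had 1 and 2 reads in K48M and was at 0 in both Col-0 libraries. The lowest difference of the list was that of LRX1, a cell wall protein of root hairs, which had 2.12 and 5.95 CPM in K48M, against 8.55 and 6 CPM in Col-0. Genes of seed storage proteins had 3 and 3 reads in all in K48M, against 2 and 2 in Col-0, and none was tested. In whole seedlings fewer cells of a type and less mRNA per cell cannot be told apart.

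Among the heat shock genes 15 of 24 (62.5%) were positive, beside 53.3% of all genes tested, with a median of 0.17 and 0 called. At an unadjusted p under 0.05, 3 were higher and 0 lower in edgeR, beside 2.57% higher and 4.68% lower over all genes. The median was 0.29 in the ST_FR and -0.15 in the LTF_GG pair, and 15 of the 24 had opposite signs in the pairs. HSP23.6-MITO, a small mitochondrial chaperone, had 200 and 47.1 CPM in K48M, against 168 and 16.6 CPM in Col-0 (log2 difference 0.81 ± 0.32). HSP21 of the chloroplast had 92.2 and 16.4 CPM in K48M, against 65.4 and 7.44 CPM in Col-0 (0.77 ± 0.33), and AT2G29500, an HSP20-like chaperone, had 104 and 13.3 CPM in K48M, against 53.8 and 12.7 CPM in Col-0 (0.60 ± 0.28). With the conditions of the titles the difference was -0.32 for HSP23.6-MITO and -0.07 for HSP21. Both lines were high in the ST_FR and low in the LTF_GG libraries, so the difference between sets exceeded that between lines. In dark total mRNA 10 of the 24 were positive and 14 negative, beside 52.1% positive over all genes tested. There the list had a median of -0.06 and 0 called, with 0 higher and 2 lower at an unadjusted p under 0.05 in edgeR. In submerged polysome RNA 23 of the 24 were positive, beside 50.7% of all genes tested. The median was 0.55, with 0.52 in the ST_FR and 0.55 in the LTF_GG pair, and 0 were called.

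In the circadian clock list, 1 of 17 genes was lower at an unadjusted p under 0.05, with a median of -0.13 and 0 called. RVE8, a morning transcription factor, had 5.51 and 1.43 CPM in K48M, against 11.5 and 4.92 CPM in Col-0 (log2 difference -1.25 ± 0.50, edgeR adjusted p = 0.668). Of 16 defense genes 9 were positive and 7 negative, with 0 higher and 2 lower at an unadjusted p under 0.05, a median of 0.17 and 0 called. Over all genes tested 4.68% were lower at that threshold. WRKY70, a factor of salicylic acid signalling, had 8.20 and 9.52 CPM in K48M, against 13.7 and 22.1 CPM in Col-0 (-0.98 ± 0.31, edgeR adjusted p = 0.642), and SID2, which makes salicylic acid, had 2.54 and 2.14 CPM in K48M, against 3.85 and 6.24 CPM in Col-0. The groups did not overlap for either, but the share of all genes without overlap was not counted. On unique reads the SID2 difference was 0.19.

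Among 9 tested genes of 11 linked to abscisic acid the median was 0.30 and 0 were called. RAB18, a dehydrin, had the largest fitted difference of the list (2.85 ± 0.90, edgeR adjusted p = 0.642), which rests on 1 library, since K48M had 0.848 and 7.38 CPM against 0.855 and 0.240 CPM in Col-0. The nitrate transporter NRT2.1 had 7.07 and 9.29 CPM in K48M, against 5.55 and 1.68 CPM in Col-0 (1.3 ± 0.54), in a nitrogen list of 12 with a median of 0.15 and 0 called. The expansin EXPA8, a cell wall loosening protein, had 18.8 and 6.67 CPM in K48M, against 10.9 and 2.64 CPM in Col-0 (1.01 ± 0.42), in a growth list of 10 with a median of 0.32 and 0 called. The translation factor eIF4E1, which binds the mRNA cap, had 54.3 and 44.0 CPM in K48M, against 37.8 and 29.9 CPM in Col-0 (0.54 ± 0.21, edgeR adjusted p = 0.668), in a list of 7 eIF4 factors with a median of 0.22 and 0 called. The 8 flavonoid genes tested of 14 had a median of 0.48, with 0.06 in the ST_FR and 0.90 in the LTF_GG pair, and 0 called.

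**Figure D5:**
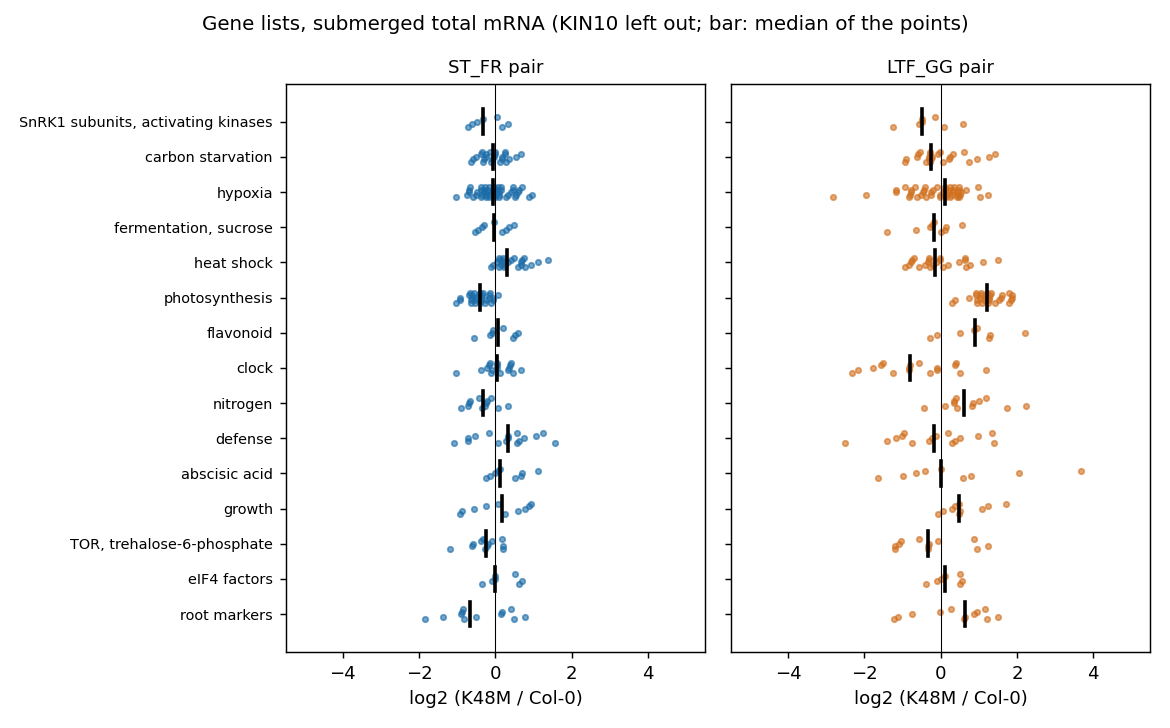
Log2 K48M over Col-0 difference (x axis) of every tested member of 15 gene lists (rows), with KIN10 left out, in the ST_FR pair on the left and the LTF_GG pair on the right, with a bar for the median. The photosynthesis median is -0.41 in the ST_FR and 1.22 in the LTF_GG pair, while the hypoxia medians are -0.07 and 0.11.

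Whether the genotype difference depended on submergence was tested as the difference under submergence minus that in the dark. edgeR called 0 of the 19024 genes, or 0%, and 166 had an unadjusted p under 0.05. DESeq2 made 1 call, AT1G48598.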

How the data were processed

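Reads per transcript model were deposited by the authors as whole-number counts, made per the file headers from read pairs after trimming. The submitters' processing notes name the build TAIR10. No source used here names the aligner or says whether counting used strand. Model lengths come from the same file headers. Total gene reads of 41660 models were summed to 33592 genes, and each table's 11 rows without an identifier (at most 0.0084% of reads) were left out. Of the genes, 32825 matched RefSeq (TAIR10.1) by locus code, which gave symbols. The total mRNA libraries held 5.26 to 6.77 M gene reads.

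edgeR 4.0.16 (R 4.3.3) fitted the 16 libraries in 8 groups with TMM scaling, the library set (ST_FR or LTF_GG) as a replicate block, filterByExpr, a quasi-likelihood test and Benjamini-Hochberg adjustment over 19024 genes, with calls under 0.05. The biological coefficient of variation was 23.3%. Within-pair values are differences of log2 CPM with a prior count of 2. DESeq2 1.42.0 and the other settings of the closing section were alternatives. The design took the set for a block because each set holds 1 library of each group. In 20 of 28 pairs of groups the set differences correlated above 0.1 (r from -0.10 to 0.64 across genes). Named genes are KIN10, the 10 with the smallest p per direction on the same side in both sets, and up to 4 per list by p. Some list genes (ADH1, PDC1, SUS1, HRE1, HRE2, ASN1, DIN10, SEN1, KIN11, AKINBETA1 and GRIK2) were named beyond this rule as known markers or subunits. Comparison, members and lists were chosen with earlier results of these data known. Groups that did not overlap in submerged total mRNA are described for genes picked by p from those libraries. The share of all genes without overlap was not counted. The fitting script was tested on simulated data. p-values measure the spread between these libraries.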

Additional observations from a re-analysis of the deposited data

Results flagged for a closer look

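AT1G48598 was singled out because its genotype difference was of opposite sign in the 2 conditions. DESeq2 gave the difference under submergence minus that in the dark as -2.5 ± 0.48 on the log2 scale (adjusted p = 0.00291), and edgeR as -2.51 ± 0.42 (adjusted p = 0.42). Under submergence it had 16.4 and 21.2 CPM in K48M, against 42.7 and 48.4 CPM in Col-0. In the dark it had 37.1 and 45 CPM in K48M, against 20.7 and 15 CPM in Col-0, so the groups did not overlap in either condition. The same libraries singled the gene out, so this separation is no further support. It also rests on the header conditions of the 2 libraries with conflicting labels. By the titles the LTF_GG library of submerged K48M is the one at 45 CPM. That level lies between the 42.7 and 48.4 CPM of submerged Col-0, so the groups then overlap under submergence. The files annotate it as a conserved upstream open reading frame, with a model of 1963 bases that nearly equals the 1956 bases of PMEAMT (AT1G48600), a phosphoethanolamine N-methyltransferase. PMEAMT had 116 and 151 CPM in K48M, against 88.2 and 87.9 CPM in Col-0 under submergence, and 131 and 152 CPM in K48M, against 106 and 105 CPM in Col-0 in the dark. How reads were divided between these models was not tested.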

How the results depend on the processing

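The direction of the KIN10 difference held under every alternative in which KIN10 was tested, with log2 values from 5.56 to 5.77. Over all genes tested the median bounds of the 95% interval were -0.72 and 0.77 on the log2 scale, so smaller differences of a typical gene were not detectable. These bounds are not adjusted for the number of genes tested, as the calls are. Larger differences thus also went uncalled, such as that of PTR4 (-1.92, edgeR adjusted p = 0.161). In submerged total mRNA the number of calls was 2 with DESeq2, 2 without the filter on low counts, 2 without rRNA and organelle genes, and 1 to 2 when each library was left out in turn. The second call was AT1G29357 with DESeq2 (log2 difference -1.99) and ARO1 in the others, which include the fits without the ST_FR library of K48M and without that of Col-0. Dark total mRNA had 42 calls with DESeq2 and 2 without the filter, submerged polysome RNA had 2 without the filter, and the difference between conditions had 1 with DESeq2. On reads unique to a model, 0 genes were called in submerged total, dark total and submerged polysome RNA by edgeR, with 1021, 1812 and 205 at an unadjusted p under 0.05, and KIN10 was not tested. Without the replicate block, edgeR called 1 gene in submerged total mRNA (KIN10, 5.66), so the block changed no call there, while 821 genes instead of 1379 had an unadjusted p under 0.05. The conditions of the titles gave 2361 such genes.

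The sign of some single genes reversed, and the cause was not tested. With both libraries of conflicting labels left out, the log2 difference was -0.35 for LHCB2.2, -0.27 for LHCB6, -0.02 for CHI, -0.45 for LBD38, -0.03 for ASN2, -0.02 for eIFiso4G2 and 0.38 for SUS3. Over the fits that left out 1 library each it ran from -0.29 to 1.31 for LHCB2.2, from -0.22 to 1.37 for LHCB6, from -0.04 to 1.16 for CHI, from -0.46 to 1.28 for LBD38, from -0.01 to 0.44 for ASN2, from -0.19 to 0.54 for PDC2 and from -1.73 to 0.25 for SUS3. With the conditions of the titles it was -0.20 for PDC2, -0.32 for HSP23.6-MITO, -0.07 for HSP21, -0.04 for LBD38 and 1.44 for THAS. On unique reads it was 0.19 for SID2.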

Other observations

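Over all 16 libraries, 2 genes had every K48M library above every Col-0 library, KIN10 and BRK1, and 0 had every K48M library below. BRK1 codes for a small subunit of the SCAR/WAVE complex, which controls actin, and was named after its values were seen. In submerged total mRNA it had 15.3 and 25.7 CPM in K48M, against 13 and 9.12 CPM in Col-0. In the dark it had 26.2 and 20.1 CPM in K48M, against 13.3 and 10.7 CPM in Col-0. The K48M levels were thus higher in both library pairs of both conditions, which follows from the separation that picked BRK1. On submerged polysomes it had 14.7 and 14 CPM in K48M, against 11 and 12.1 CPM in Col-0, and on dark polysomes 15.9 and 16.4 CPM in K48M, against 11.7 and 13.8 CPM in Col-0. Its log2 difference in submerged total mRNA was 0.89 ± 0.30 (edgeR adjusted p = 0.642), so BRK1 was not called.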
